A study of Mus musculus with 24 samples.

Results

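The transcripts described here are 9 genes of the CC chemokine system that monocytes and macrophages make or answer to: the ligands Ccl2, Ccl3, Ccl4, Ccl6, Ccl7, Ccl9 and Ccl11 and the receptors Ccr1 and Ccr2. They are 9 of 18820 genes tested on Affymetrix Mouse Gene 1.1 ST arrays, and were taken as a named list, each by the probe set paired with its symbol alone. All 9 were found, with 1 such probe set for each gene. Values are log2 intensities after RMA (Robust Multichip Averaging), so that a difference of 1 is a doubling, and the level of a gene can be compared between arrays but not with the level of another gene.

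CC chemokines are small secreted proteins that bind G protein-coupled receptors and draw leukocytes out of the blood. Ccl2 and Ccl7 act through Ccr2, which lets inflammatory monocytes leave the bone marrow and enter injured heart muscle, while Ccl3, Ccl6, Ccl7 and Ccl9 act on Ccr1. In an injured heart they are made by resident macrophages, endothelial cells, fibroblasts and the leukocytes that arrive.

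Each array carried left ventricular RNA of 1 male mouse, 12 to 16 weeks old by the methods, and there were 3 mice in each of 8 groups. The mice were labelled Per2-/-, mutants of the circadian clock gene Per2, or wildtype, with the strain label BL6C57 for both. The treatments were ischemia for 30 minutes with harvest at its end (I30), preconditioning by 4 short occlusions of 5 minutes that were each released for 5 minutes (IP0), ischemia for 30 minutes with blood flow then restored for 60 minutes (I30R60), and a sham operation as the control. Ischemia came from a suture around the left coronary artery, and by the labels all mice, sham controls included, shared the anesthesia, a catheter, the stitch in the heart and a flush with cold saline. The titles of the control samples call them untreated controls, however, while the paper describes the control hearts as sham operated. The Per2 probe set read 5.63 to 5.69 in Per2-/- sham hearts and 5.33 to 6.10 in wildtype sham hearts, and none of the 4 comparisons between the genotypes passed the test for it (the lowest adjusted p was 0.0643, after I30). The part of the gene that is deleted is not given in the sources used here, so this probe set does not check the genotype.

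Array medians lay between 4.39 and 4.52, and the lowest correlation between arrays of a group was 0.981. The 6 measured heart muscle markers summed to between 40298 and 44601 on the linear intensity scale over all arrays. Replicate 3 of the Per2-/- sham hearts stood apart: it had the highest level of the atrial light chain gene Myl7 (11.21), and it was the lowest of all 24 arrays for Ccl2, Ccl3, Ccl7, Ccl9 and Ccl11. Replicate 3 of the Per2-/- IP0 hearts (9.12) and replicates 1 and 2 of the wildtype sham hearts (8.24 and 5.22) also had Myl7 above the other 20 arrays. Lung epithelial markers summed to between 92 and 346 in wildtype I30 hearts and to between 57 and 85 on the remaining 21 arrays.

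After ischemia with reperfusion, 5 of the 9 genes rose in Per2-/- hearts over Per2-/- sham hearts. These were Ccl2, Ccl3, Ccl4, Ccl7 and Ccr1, by log2 changes between 0.71 and 2.97. In the same comparison 2.78% of all 18820 genes were called higher and 4.79% were called in either direction, at an adjusted p under 0.05. These calls rest on a spread estimated from all 8 groups: none of the 5 was called when only these 6 arrays were fitted (lowest adjusted p = 0.0895, for Ccl3, in limma) or by the methods' t-test after adjustment. Without the 4 arrays of high Myl7, 2 calls were left, Ccl3 and Ccl4. The median log2 change was 0.82 over the 9 genes and -0.04 over all genes. None of the 9 passed the test in wildtype I30R60 hearts against wildtype sham hearts, where 1.66% of all genes were called higher and 2.47% in either direction. There the median was 0.40 over the 9 genes and -0.02 over all genes, and 3 of the 9 had an unadjusted p under 0.05 in limma, as had 13.4% of all genes. That count of 0 also moved with the fit. Ccl3 was called in wildtype hearts with a replicate block (adjusted p = 0.0394 in limma) and with array weights (adjusted p = 0.0496 in limma). Without the arrays of high Myl7 its wildtype change was 2.75, but that fit kept 1 wildtype sham array, replicate 3. This array had the lowest Ccl3 of the wildtype sham hearts (5.94, against 7.11 and 7.59). The response did not pass the test of a difference between the genotypes for any of the 9.

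**Figure D1:**
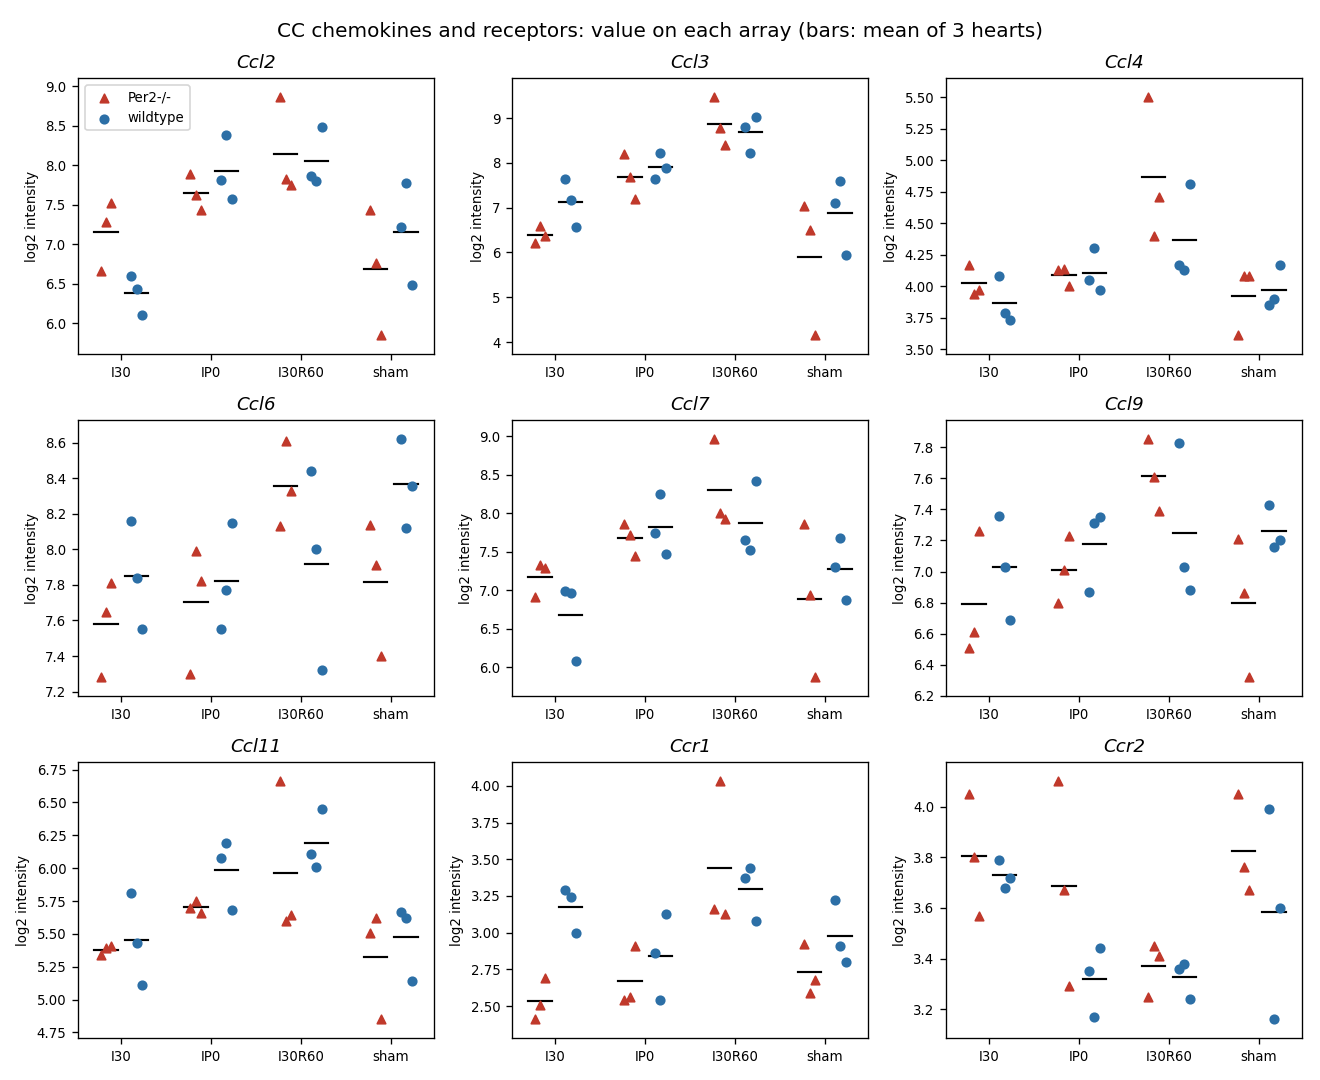
Log2 intensity (vertical axes, with a different range for each gene) of the 9 genes on each of 24 arrays, for I30, IP0, I30R60 and sham hearts, with Per2-/- as red triangles left of wildtype as blue circles and a black bar at the mean of 3 hearts. Ccl3 lies between 8.22 and 9.46 in the 6 I30R60 hearts and between 4.15 and 7.59 in the 6 sham hearts.

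The ligand with the largest change was Ccl3, a chemokine of activated macrophages and neutrophils. It read 9.46, 8.77 and 8.40 in Per2-/- I30R60 hearts, against 7.04, 6.51 and 4.15 in Per2-/- sham hearts. In wildtype hearts it read 8.81, 8.22 and 9.02 after I30R60, against 7.11, 7.59 and 5.94 after sham operation. All 6 reperfused hearts therefore lay above all 6 sham hearts. The sham hearts were spread more widely than the reperfused ones, largely through the 4.15 of replicate 3 of the Per2-/- sham hearts. The other sham hearts lay between 5.94 and 7.59, and the reperfused hearts between 8.22 and 9.46. The log2 change was 2.97 ± 0.53 in Per2-/- hearts (SE, n = 3 each, 7.86-fold, adjusted p = 0.00195 in limma) and 1.80 ± 0.53 in wildtype hearts (3.49-fold, adjusted p = 0.0868). The difference between these changes was 1.17 (95% interval -0.41 to 2.75, adjusted p = 0.957). When each of the 6 Per2-/- arrays was left out in turn, the change of Ccl3 stayed between 2.10 and 3.54 and was called all 6 times. The lowest of these came without replicate 3 of the Per2-/- sham hearts. Those fits kept the other groups, and with the Per2-/- I30R60 and sham hearts alone the change of Ccl3 was 2.97 ± 0.69 and was not called (adjusted p = 0.0895 in limma). In tissue RNA, more cells that hold a transcript and more of it in each cell cannot be told apart.

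Ccl2, the main monocyte attractant, read 8.86, 7.83 and 7.75 in Per2-/- I30R60 hearts, against 7.44, 6.76 and 5.85 in Per2-/- sham hearts. It read 7.87, 7.80 and 8.48 in wildtype I30R60 hearts, against 7.22, 7.78 and 6.49 in wildtype sham hearts. The groups did not overlap in either genotype, but in wildtype hearts the nearest arrays of the groups all but met. The log2 change was 1.47 ± 0.38 in Per2-/- hearts (adjusted p = 0.0279) and 0.89 ± 0.38 in wildtype hearts (adjusted p = 0.291), and their difference was 0.58 (95% interval -0.53 to 1.69, adjusted p = 0.98). Ccl2 was called in 3 of the 6 fits of the Per2-/- comparison that left out 1 array, and without replicate 3 of the Per2-/- sham hearts its change was 1.05 (adjusted p = 0.157).

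Ccl7, a ligand of the same receptor that lies next to Ccl2 on chromosome 11, read 8.96, 8.01 and 7.93 in Per2-/- I30R60 hearts, against 7.86, 6.94 and 5.87 in Per2-/- sham hearts. The groups did not overlap, by a narrow margin between the lowest reperfused and the highest sham heart. Its wildtype values overlapped, with 7.66, 7.53 and 8.42 after I30R60, against 7.30, 7.68 and 6.87 after sham operation. The log2 change was 1.41 ± 0.39 in Per2-/- hearts (adjusted p = 0.0431) and 0.59 ± 0.39 in wildtype hearts (adjusted p = 0.565). It was called in 1 of the 6 fits with a Per2-/- array left out, and its change was 0.90 without replicate 3 of the sham hearts (adjusted p = 0.224).

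Ccl4, the partner of Ccl3 in many macrophage responses, spanned 1.89 on the log2 scale over the 24 arrays. It read 5.50, 4.40 and 4.71 in Per2-/- I30R60 hearts, against 3.61, 4.08 and 4.08 in Per2-/- sham hearts, a log2 change of 0.95 ± 0.22 (adjusted p = 0.0127). In wildtype hearts it read 4.17, 4.13 and 4.81 after I30R60, against 3.85, 3.90 and 4.17 after sham operation, a change of 0.40 ± 0.22 (adjusted p = 0.454). Replicate 1 of the Per2-/- I30R60 hearts was the highest array of all, and without it the change was 0.63. Ccl4 was called in 4 of 6 fits that left out a Per2-/- array. RefSeq places Ccl3 and Ccl4 beside each other on chromosome 11 with overlapping spans, and whether their probe sets share signal was not tested.

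Ccl11, the eosinophil attractant eotaxin, differed by similar amounts in both genotypes and was called in neither. It read 6.66, 5.60 and 5.64 in Per2-/- I30R60 hearts, against 5.51, 5.62 and 4.85 in Per2-/- sham hearts, where replicate 1 was about a log2 unit above the other reperfused hearts and the groups overlapped. Wildtype values were 6.11, 6.01 and 6.45 after I30R60, against 5.67, 5.62 and 5.14 after sham operation, and did not overlap. The log2 differences were 0.64 ± 0.25 (adjusted p = 0.164) and 0.71 ± 0.25 (adjusted p = 0.166), in Per2-/- and wildtype hearts in that order. The 8 measured eosinophil and mast cell markers summed to between 90 and 115 over all 24 arrays, and none of them was called in the comparisons of I30R60 with sham hearts.

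Ccl6 and Ccl9 are chemokines of rodent macrophages and myeloid cells, and no change of either passed the test in the 15 comparisons of single groups and interactions. Ccl9 read 7.85, 7.61 and 7.39 in Per2-/- I30R60 hearts, against 7.21, 6.86 and 6.32 in Per2-/- sham hearts, a log2 difference of 0.82 ± 0.26 (adjusted p = 0.075). In wildtype hearts it read 7.83, 7.03 and 6.88, against 7.43, 7.16 and 7.20, a difference of -0.01 ± 0.26 (adjusted p = 0.992). Ccl6 read 8.13, 8.61 and 8.33 in Per2-/- I30R60 hearts, against 8.14, 7.91 and 7.40 in Per2-/- sham hearts, and the groups overlapped. In wildtype hearts it read between 7.32 and 8.44 after I30R60, against 8.62, 8.12 and 8.36 after sham operation, and its highest value of all 24 arrays was in a wildtype sham heart. The interaction was 0.98 for Ccl6 (95% interval 0.21 to 1.75, unadjusted p = 0.0149 and adjusted p = 0.888 in limma) and 0.83 for Ccl9 (95% interval 0.08 to 1.59, unadjusted p = 0.0326 and adjusted p = 0.896 in limma). Both leaned in part on replicate 3 of the Per2-/- sham hearts. Without it the Per2-/- difference was 0.33 in place of 0.54 for Ccl6 and 0.58 in place of 0.82 for Ccl9.

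Promoter sequences of 5 members, credited to RefSeq on GRCm38.p6, were at hand: Ccl3, Ccl6, Ccl9, Ccr1 and Ccr2, each from 250 bases before to 50 bases after the annotated start. Those of Ccl6 and Ccl9, which moved together from array to array, and of Ccl3, which moved most, are shown 5′ to 3′ on the strand of the gene. Capitals mark matches on either strand to the consensus of NF-kappaB, to TGANTCA (AP-1), to GGAAGT (a PU.1-type ETS site) or to TATAAA. Ccl6 lies at chr11:83593038-83593337, Ccl9 at chr11:83578587-83578886 and Ccl3 at chr11:83649329-83649628, all on the minus strand.
Ccl6: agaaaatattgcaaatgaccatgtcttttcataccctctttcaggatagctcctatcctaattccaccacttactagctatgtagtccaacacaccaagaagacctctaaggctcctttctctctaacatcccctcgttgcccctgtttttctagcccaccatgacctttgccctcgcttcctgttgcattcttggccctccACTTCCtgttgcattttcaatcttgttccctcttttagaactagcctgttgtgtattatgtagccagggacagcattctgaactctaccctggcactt
Ccl9: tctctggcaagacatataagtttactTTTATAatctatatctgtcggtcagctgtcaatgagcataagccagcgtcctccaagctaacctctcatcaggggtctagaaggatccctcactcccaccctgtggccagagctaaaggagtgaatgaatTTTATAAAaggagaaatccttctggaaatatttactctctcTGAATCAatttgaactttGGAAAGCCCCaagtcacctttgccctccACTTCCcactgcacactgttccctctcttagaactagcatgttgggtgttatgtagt
Ccl3: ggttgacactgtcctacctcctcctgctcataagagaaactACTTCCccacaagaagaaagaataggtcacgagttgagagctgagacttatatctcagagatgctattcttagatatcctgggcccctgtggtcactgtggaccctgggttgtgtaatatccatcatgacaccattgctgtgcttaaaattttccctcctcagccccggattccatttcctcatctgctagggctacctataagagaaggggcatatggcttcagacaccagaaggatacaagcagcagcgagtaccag

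In a local alignment the promoters of Ccl6 and Ccl9 shared 59 of 74 aligned bases (79.7%), with 13 identical bases in the longest run. The other pairs of these 5 promoters aligned over 20 to 70 columns, with 62.9% to 85% identical. The 85% was for Ccl6 and Ccr1, at 17 of 20. No unrelated promoters were aligned for comparison. The Ccl9 promoter held the NF-kappaB consensus on the reverse strand from base -35 to -26 before the start and the AP-1 motif from -53 to -47. It also held TATAAA on the reverse strand from -224 to -219 and from -94 to -89. A further TATAAA, on the strand of the gene, overlapped the latter from -92 to -87. GGAAGT stood on the reverse strand from -7 to -2 in Ccl9, from -48 to -43 in Ccl6 and from -209 to -204 in Ccl3. No match to the 4 motifs, or to the E-box CACGTG, was found in the windows of Ccr1 and Ccr2, and the windows of Ccl3, Ccl6 and Ccl9 held no E-box. Over all 32851 promoters of this length, 4.51% held the NF-kappaB consensus, 7.81% TGANTCA, 23.8% GGAAGT, 13.6% TATAAA and 7.15% CACGTG. A match is a description of letters and not a site of binding, and searches of this kind say nothing on which factors acted in these hearts.

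Of the receptors, Ccr1 rose in Per2-/- hearts after reperfusion. It binds Ccl3, Ccl6, Ccl7 and Ccl9 and sits on monocytes and neutrophils. It read 3.16, 4.03 and 3.13 in Per2-/- I30R60 hearts, against 2.92, 2.59 and 2.68 in Per2-/- sham hearts, a log2 change of 0.71 ± 0.20 (adjusted p = 0.0443). Replicate 2 stood well above the other reperfused hearts, and without it the change was 0.42. The call was kept in 2 of 6 fits with a Per2-/- array left out. All 3 Per2-/- sham values lay under 2.93, the 25th percentile of all values of all genes on the 24 arrays, and with dim probe sets filtered Ccr1 was not among the genes tested. Wildtype values overlapped, with 3.37, 3.44 and 3.08 after I30R60, against 3.22, 2.91 and 2.80 after sham operation (difference 0.32 ± 0.20, adjusted p = 0.53).

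Ccr2, the receptor of inflammatory monocytes, was the only one of the 9 genes whose values after I30R60 lay below those of sham hearts in both genotypes on average. It read 3.25, 3.45 and 3.41 in Per2-/- I30R60 hearts, against 4.05, 3.76 and 3.67 in Per2-/- sham hearts, with no overlap. In wildtype hearts it read 3.36, 3.38 and 3.24 after I30R60, against 3.99, 3.16 and 3.60 after sham operation, with overlap. The log2 differences of -0.46 ± 0.19 in Per2-/- hearts (adjusted p = 0.19) and -0.26 ± 0.19 in wildtype hearts (adjusted p = 0.609) did not pass the test. All 24 values of Ccr2 lay between 3.16 and 4.10, the narrowest range of the 9 genes.

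**Figure D2:**
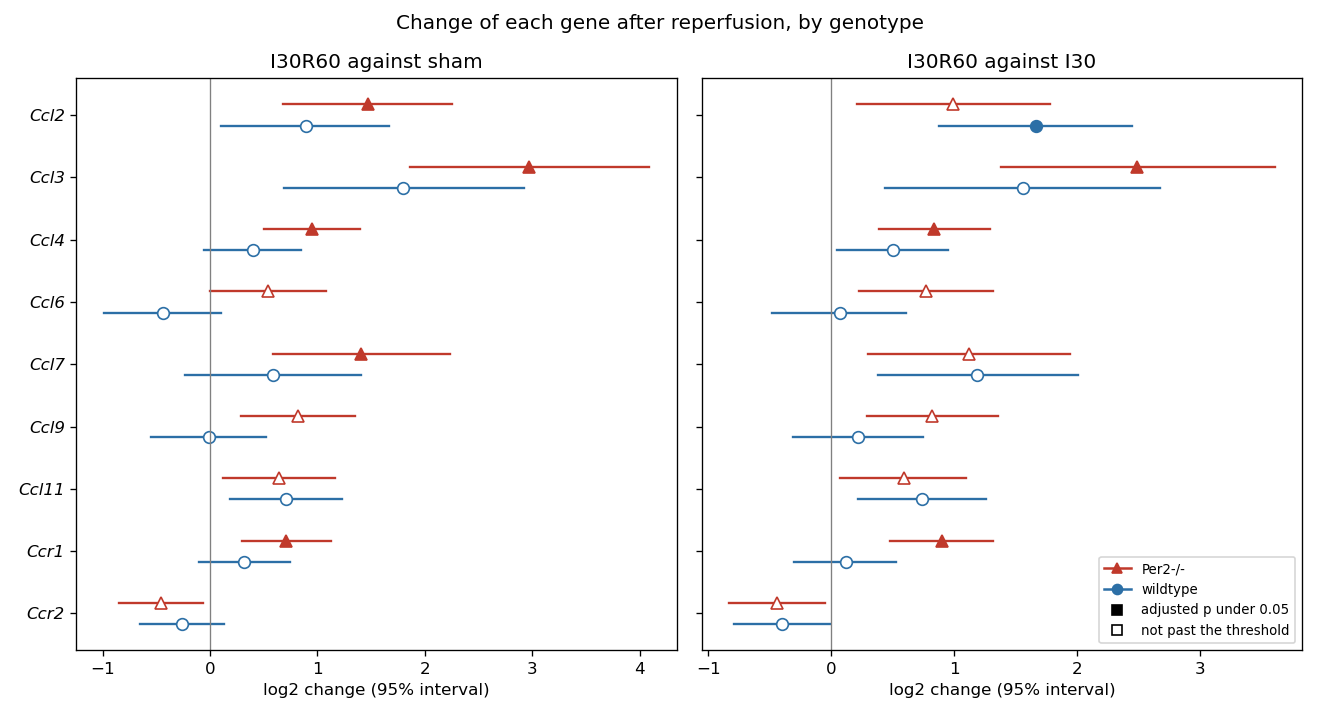
Log2 change (horizontal axes, bars are 95% intervals) of the 9 genes after I30R60 against sham hearts (left) and against I30 hearts (right), in Per2-/- (red triangles, above) and wildtype hearts (blue circles, below), with filled symbols at an adjusted p under 0.05. Ccl3 in Per2-/- hearts, at 2.97 against sham and 2.49 against I30, lies farthest to the right, and Ccr2 is left of 0 in all 4 comparisons.

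Reperfusion was also set against ischemia alone, which asks what the 60 minutes of returned blood flow added. In Per2-/- hearts 3 of the 9 genes rose, beside 3.69% of all genes called higher and 5.40% in either direction. Ccl3 was higher by 2.49 ± 0.53 (adjusted p = 0.00777), with 9.46, 8.77 and 8.40 after I30R60, against 6.21, 6.58 and 6.36 after I30. Ccr1 was higher by 0.90 ± 0.20 (adjusted p = 0.00975), with I30 values of 2.41, 2.51 and 2.69, and Ccl4 by 0.84 ± 0.22 (adjusted p = 0.0254), with I30 values of 4.17, 3.94 and 3.97. Ccl3 was called in all 6 fits that left out an array and Ccr1 in 5, where its change was 0.60 without replicate 2 of the I30R60 hearts (adjusted p = 0.051). Ccl4 was called in 3 of the 6, and its change was 0.53 without replicate 1 of the I30R60 hearts (adjusted p = 0.143). The I30 values of Ccr1 were all under 2.93 too, and with only these 6 arrays fitted Ccl3 alone was called (adjusted p = 0.00434). All 9 genes had an unadjusted p under 0.05, beside 18.6% of all genes, 8 of them with every reperfused heart above every ischemic one and Ccr2 with every one below. For comparison, in 10.8% of all genes every reperfused heart was above and in 13% every one was below.

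In wildtype hearts the one call against I30 was Ccl2, beside 3.24% of all genes called higher and 5.49% in either direction. Ccl2 read 7.87, 7.80 and 8.48 in wildtype I30R60 hearts, against 6.60, 6.43 and 6.11 in wildtype I30 hearts, a log2 change of 1.67 ± 0.38 (3.17-fold, adjusted p = 0.0128). It lost the call without replicate 3 of the I30R60 hearts (adjusted p = 0.0616) and kept it in the other 5 such fits. Ccl3 differed by 1.56 ± 0.53 (adjusted p = 0.0931), Ccl7 by 1.19 ± 0.39 (adjusted p = 0.0794) and Ccl11 by 0.74 ± 0.25 (adjusted p = 0.0848), each without overlap of the groups. The wildtype I30 hearts also carried the raised lung epithelial markers, and their neutrophil markers summed to between 241 and 773. The part of these in the differences was not tested.

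Ischemia alone and preconditioning gave no call among the 9 genes in either genotype. After I30 the adjusted p lay between 0.825 and 0.999 in Per2-/- hearts, where none of all genes was called, and between 0.259 and 0.96 in wildtype hearts, where 2.39% of all genes were called. No member had an unadjusted p under 0.05 in either, beside 7.14% of all genes in Per2-/- and 19.6% in wildtype hearts. Ccl2 read 6.66, 7.28 and 7.52 in Per2-/- I30 hearts, against 7.44, 6.76 and 5.85 in Per2-/- sham hearts (difference 0.47 ± 0.38, adjusted p = 0.825). In wildtype I30 hearts its 6.60, 6.43 and 6.11 were lower on average than the 7.22, 7.78 and 6.49 of wildtype sham hearts (difference -0.78 ± 0.38, adjusted p = 0.259). The difference between the genotypes was 1.25 (95% interval 0.14 to 2.36, unadjusted p = 0.0292 and adjusted p = 0.66 in limma). It leaned on replicate 3 of the Per2-/- sham hearts, without which the Per2-/- difference of Ccl2 was 0.05 ± 0.37 in place of 0.47.

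After IP0 the ligands Ccl2, Ccl3, Ccl7 and Ccl11 lay above sham hearts on average in both genotypes, while no adjusted p was below 0.297 in Per2-/- hearts or below 0.417 in wildtype hearts. Of all genes 0.159% and 0.85% were called in these comparisons. Ccl3 read 8.19, 7.68 and 7.19 in Per2-/- IP0 hearts, against 7.04, 6.51 and 4.15 in Per2-/- sham hearts, which did not overlap (difference 1.78 ± 0.53, adjusted p = 0.297). Without replicate 3 of the Per2-/- sham hearts the difference was 0.91 ± 0.42 (adjusted p = 0.663). It read 7.64, 8.22 and 7.88 in wildtype IP0 hearts, against 7.11, 7.59 and 5.94 in wildtype sham hearts, again without overlap (difference 1.03 ± 0.53, adjusted p = 0.461). Ccl2 and Ccl3 had an unadjusted p under 0.05 in Per2-/- hearts, beside 8.23% of all genes, and no member had one in wildtype hearts, beside 12.1% of all genes.

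No difference between the genotypes passed the test for any of the 9 genes, within sham, I30, IP0 or I30R60 hearts, where 0.266%, 0.664%, 0.0797% and 0.175% of all genes were called. After I30R60 the log2 difference of Per2-/- from wildtype hearts was 0.19 for Ccl3 (95% interval -0.93 to 1.31), 0.10 for Ccl2 (-0.69 to 0.88), 0.43 for Ccl7 (-0.39 to 1.25), 0.14 for Ccr1 (-0.27 to 0.56) and 0.50 for Ccl4 (0.05 to 0.95, adjusted p = 0.543). In sham hearts, 8 of the 9 genes were lower on average in Per2-/- than in wildtype hearts, with a median of -0.39 over the 9 and Ccl3 at -0.98 (95% interval -2.10 to 0.14, adjusted p = 0.739). These values depended on replicate 3 of the Per2-/- sham hearts: without it 6 of the 9 were lower, the median was -0.10, Ccl3 stood at -0.10, and Ccl7 and Ccl11 were higher by 0.12 and 0.08. After I30, Ccr1 read 2.41, 2.51 and 2.69 in Per2-/- hearts, against 3.29, 3.24 and 3.00 in wildtype hearts, without overlap (difference -0.64 ± 0.20, adjusted p = 0.172). Of the 27 interactions of genotype and treatment, none was called (none of all genes in any of the 3), and 3 had an unadjusted p under 0.05 in limma, beside 7.1%, 4.81% and 5.49% of all genes for I30, IP0 and I30R60. These tests have wide intervals, and they do not show that the genotypes respond alike.

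The mean of both genotypes was then set against the mean of both sham groups, a comparison added after the values were seen. After I30R60, 6 of the 9 genes were higher, beside 4.29% of all genes called higher and 9.34% in either direction. Ccl3 was higher by 2.39 ± 0.38 (adjusted p = 0.000274), Ccl2 by 1.18 ± 0.27 (adjusted p = 0.00687), Ccl7 by 1.00 ± 0.28 (adjusted p = 0.0266), Ccl11 by 0.68 ± 0.18 (adjusted p = 0.0176), Ccl4 by 0.67 ± 0.15 (adjusted p = 0.00714) and Ccr1 by 0.52 ± 0.14 (adjusted p = 0.0241). Ccl2, Ccl3 and Ccl4 were called in all 12 fits that left out 1 of the arrays, Ccl11 in 10, and Ccl7 and Ccr1 in 7 each. Ccl6 differed by 0.05 (adjusted p = 0.923), Ccl9 by 0.40 (adjusted p = 0.189) and Ccr2 by -0.36 (adjusted p = 0.0997). After IP0 none was called (1.94% of all genes in either direction), with Ccl3 at 1.41 ± 0.38 (adjusted p = 0.0606) and Ccl2 at 0.86 ± 0.27 (adjusted p = 0.109), and 4 had an unadjusted p under 0.05 in limma (14.7% of all genes). After I30 none was called (1.61% of all genes), and none had an unadjusted p under 0.05 (20.1% of all genes).

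**Figure D3:**
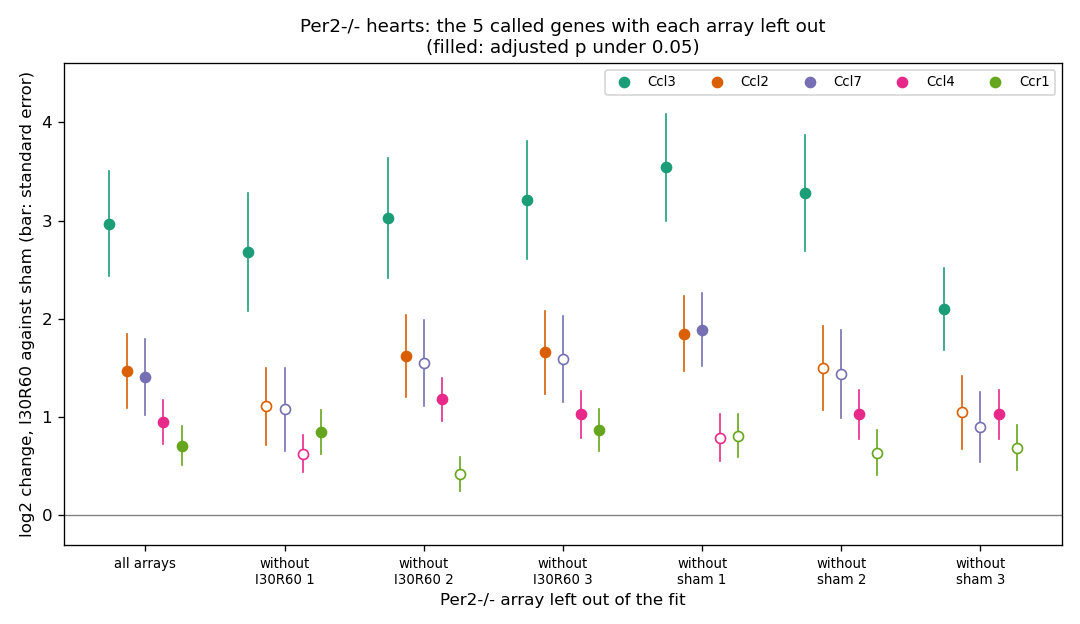
Log2 change after I30R60 against sham in Per2-/- hearts (vertical axis, bars are standard errors) of the 5 called genes, with all arrays and with each of the 6 Per2-/- arrays of the comparison left out, filled at an adjusted p under 0.05. Ccl3 is filled in every fit, between 2.10 and 3.54, and only Ccl3 and Ccl4 are filled without replicate 3 of the sham hearts.

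The 4 highest group means came in the same order for Ccl2, Ccl3 and Ccl7, and the lower 4 did so for Ccl2 and Ccl7 but not for Ccl3. The highest mean was in Per2-/- I30R60 hearts, at 8.15 ± 0.62 for Ccl2, 8.88 ± 0.54 for Ccl3 and 8.30 ± 0.57 for Ccl7 (SD, n = 3), followed by wildtype I30R60, wildtype IP0 and Per2-/- IP0 hearts. Among neighbours in this order the arrays overlapped throughout, except between wildtype I30R60 (lowest 8.22) and wildtype IP0 hearts (highest 8.22) for Ccl3, which met at the second decimal. The lowest mean was in wildtype I30 hearts for Ccl2 and Ccl7, at 6.38 and 6.68, and in Per2-/- sham hearts for Ccl3, at 5.90. Ccl4 had the same 4 groups on top, Ccl11 had wildtype I30R60 first at 6.19, and Ccl6 had wildtype sham hearts level with Per2-/- I30R60 hearts at 8.36. Neighbours in the order overlapped for all of Ccl4, Ccl6, Ccl9, Ccl11, Ccr1 and Ccr2.

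Across the arrays some of the 9 genes varied together. Ccl2 and Ccl7 had a Pearson r of 0.96 over 24 arrays (Spearman rho 0.92), and 0.94 for deviations from the group means. Ccl3 followed both, with r of 0.84 to Ccl2 and 0.86 to Ccl7 (0.87 and 0.89 for the deviations), as did Ccl11, with r of 0.85 and 0.84 (0.82 and 0.83). Ccl6 and Ccl9 had an r of 0.80 (rho 0.81) and 0.79 for the deviations. Ccl2 and Ccl6 had 0.15 and 0.01. These sets were not separate, since Ccl9 had r of 0.66 with Ccl3, 0.59 with Ccl7, 0.54 with Ccl2 and 0.53 with Ccl11. For the deviations these were 0.49, 0.42, 0.41 and 0.38. Ccr1 had r of 0.63 with Ccl6 and 0.61 with Ccl9 (0.59 and 0.38), and Ccl4 and Ccr2 were placed in neither set. Thus hearts high in Ccl2 for their group tended to be high in Ccl7, Ccl3 and Ccl11. Those high in Ccl6 tended to be high in Ccl9. This did not hold in every group, as replicate 1 of the Per2-/- I30R60 hearts was lowest of its group in Ccl6 (8.13) and highest in Ccl9 (7.85).

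Without the 2 arrays farthest from the median, r was 0.95 for Ccl2 and Ccl7, 0.80 for Ccl2 and Ccl3, and 0.78 for Ccl6 and Ccl9. Without replicate 3 of the Per2-/- sham hearts the deviations had r of 0.93, 0.85 and 0.76 in the same order of pairs. Ccl3 and Ccl4, whose group means both were highest after reperfusion, had an r of 0.57 over all arrays and 0.07 for the deviations. Arrays share the treatment groups and the whole RNA sample, so these are descriptions of 24 arrays and not tests. Ccl2, Ccl7 and Ccl11 are neighbours on chromosome 11, and Ccl9, Ccl6, Ccl3 and Ccl4 lie in another cluster there, while Ccr1 and Ccr2 lie near each other on chromosome 9. The sequences of the probes were not used here, and whether a probe of one member also takes signal from its paralog was not tested.

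**Figure D4:**
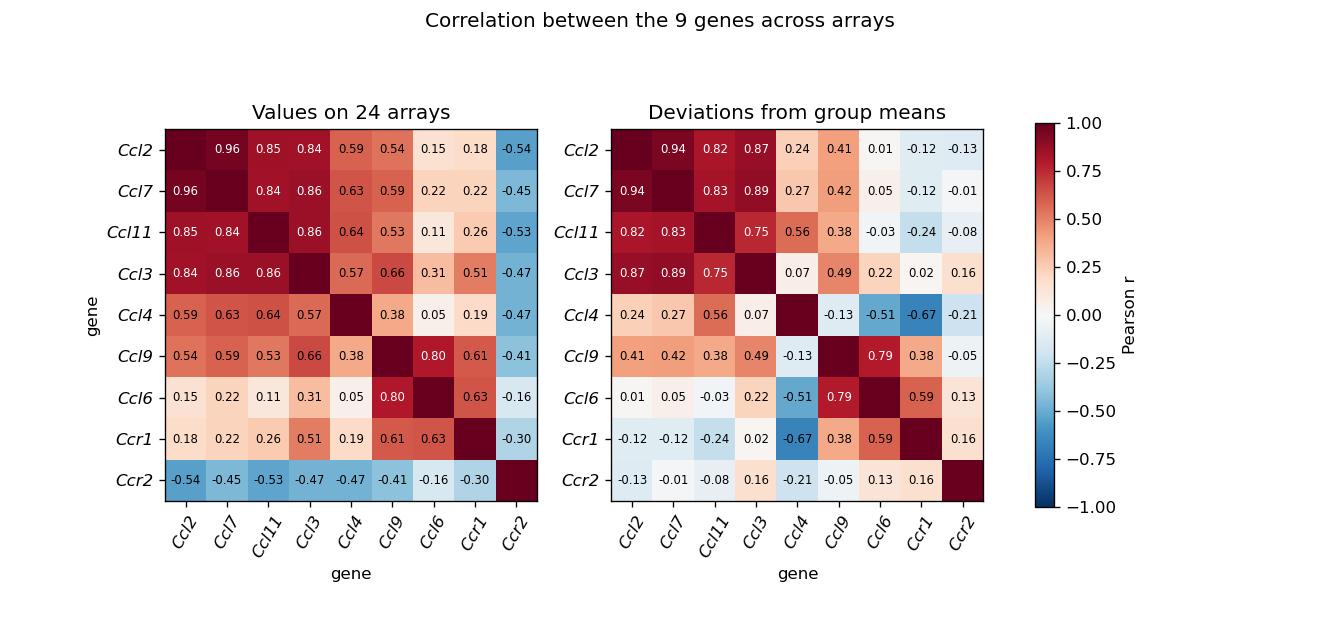
Pearson r between each pair of the 9 genes, for the values on 24 arrays (left) and for deviations from the means of the 8 groups (right), on a colour scale from -1 (blue) to 1 (red). Ccl2, Ccl7, Ccl11 and Ccl3 form one block, at 0.84 to 0.96 on the left and 0.75 to 0.94 on the right, and Ccl9 and Ccl6 a second, at 0.80 and 0.79. Ccl9 also has r of 0.53 to 0.66 with the first block on the left and 0.38 to 0.49 on the right.

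Of all 18811 other genes, those most alike in their values over 24 arrays differed between members. For Ccl3 they were Gadd45b (r = 0.929), Maff (0.911) and Gadd45g (0.91), which are genes of the early stress response. For Ccl2 they were Gfpt2 (0.882), the endothelin gene Edn1 (0.872) and the matricellular gene Ccn2 (0.869). For Ccl7 they were the complement receptor gene C5ar1 (0.875), Tnf (0.864) and Tubb6 (0.858), and for Ccl11 Il1b (0.861), Nfkbiz (0.855) and Tnf (0.849), a cytokine gene that stands on both lists.

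The genes most like Ccl9 and Ccr1 were of another kind, and Ms4a6d, a gene of macrophages, came first for both (0.865 and 0.791). Ncf1 (0.859) and Fas (0.855) came next for Ccl9, and Entpd1 (0.772) and F13a1 (0.764) for Ccr1. For Ccl6 they were Adgrl4 (0.832), Pla2g7 (0.828) and Lipe (0.812), and for Ccl4 Zfp46 (0.864), Stx11 (0.852) and Cxcl10 (0.846). Ccr2 had no gene above 0.71 (Rmnd5b), followed by Gtf2a1 (0.688) and Zfp106 (0.686).

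Markers of leukocytes were set beside the members. Of 19 measured monocyte and macrophage markers, 2 rose in Per2-/- I30R60 hearts over sham hearts, Cd14 by 1.12 (adjusted p = 0.0243) and Fcer1g by 0.50 (adjusted p = 0.0246), which were named after their values were seen. The 3 with the highest means, Lyz2, C1qb and Lyve1, were not among them. In the same comparison 2.78% of all genes were called higher. Other markers of the list had lower means in Per2-/- I30R60 than in Per2-/- sham hearts. These were Cx3cr1 (4.78 against 5.10), Fcgr1 (4.40 against 4.66), Ms4a7 (3.81 against 3.90) and Adgre1 (6.77 against 6.79). The list summed to between 3736 and 4252 in Per2-/- I30R60 hearts, against 3185 to 3517 in Per2-/- sham hearts, and to between 3262 and 4565 in wildtype I30R60 hearts, against 3297 to 3958 in wildtype sham hearts, where none was called. No marker of the list was under 2.93, the 25th percentile of all values, on every array.

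The summed neutrophil markers reached their highest values in reperfused hearts, but wildtype I30 hearts, at 241 to 773, overlapped both reperfused groups. Of 13 measured, 8 rose in Per2-/- and 3 in wildtype I30R60 hearts over sham hearts. Of all genes 2.78% and 1.66% were called higher in these comparisons. The 3 with the highest means in the list were Lcn2 (3.19 in Per2-/- and 2.15 in wildtype hearts), S100a9 (1.82 in Per2-/- hearts) and Retnlg (3.00 in Per2-/- hearts). In wildtype hearts the mean of S100a9 was 6.27 after I30R60, against 5.24 after sham operation, and that of Retnlg was 5.77 against 4.44. Sums of linear intensities weigh the brightest genes most, which here means Lcn2. The list summed to between 706 and 1150 in Per2-/- I30R60 hearts, against 148 to 218 in Per2-/- sham hearts, and to between 468 and 1080 in wildtype I30R60 hearts, against 246 to 251 in wildtype sham hearts. The part of cells that entered the heart in the changes of the 9 genes was not tested.

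The mean of the macrophage markers correlated over 24 arrays with Ccl6 (r = 0.74, and 0.66 for deviations from group means), Ccl9 (0.73 and 0.68) and Ccr1 (0.72 and 0.39), and less with Ccl3 (0.40 and 0.08) and Ccl2 (0.16 and -0.07). The mean of the neutrophil markers had an r of 0.70 with Ccl3 (0.31 for the deviations) and 0.65 with Ccl9 (0.56). The atrial markers, which summed to between 947 and 17168 in Per2-/- sham hearts, against 683 to 2324 in Per2-/- I30R60 hearts, had an r of -0.49 with Ccl3 and -0.44 with Ccl7 (-0.62 and -0.51 for the deviations). Replicate 3 of the Per2-/- sham hearts was highest in Myl7 and lowest in Ccl3 and Ccl7. No r without that array was computed for the marker lists. Ccl3 also had r of -0.26 with the fibroblast and -0.42 with the heart muscle markers (-0.55 and -0.44 for the deviations). With the lung epithelial markers it had -0.19 (0.35 for the deviations). The part of atrial tissue in these values was not tested.

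Of 12 other CC ligands measured, Ccl17 and Ccl19 were called higher in Per2-/- I30R60 hearts over sham hearts and Ccl19 alone in wildtype hearts. In these comparisons 2.78% and 1.66% of all genes were called higher. Ccl17, a ligand of Ccr4, read 4.76, 4.80 and 3.96 in Per2-/- I30R60 hearts, against 2.99, 3.22 and 3.45 in Per2-/- sham hearts (change 1.28 ± 0.28, adjusted p = 0.0104). In wildtype hearts its mean was 4.10 after I30R60, against 3.49 after sham operation, with overlap of the arrays. Ccl19, which guides dendritic cells and T cells through Ccr7, rose in both genotypes, by 0.80 ± 0.22 in Per2-/- (adjusted p = 0.0439) and by 0.86 ± 0.22 in wildtype hearts (adjusted p = 0.0455). It read 5.79, 6.06 and 5.78 in wildtype I30R60 hearts, against 5.26, 4.70 and 5.10 in wildtype sham hearts. Ccl24, Ccl5 and Ccl25, the uncalled ligands with the highest means, were not called in any of the comparisons of single groups. The median change of the 12 was 0.04 in Per2-/- and 0.15 in wildtype hearts, beside -0.04 and -0.02 over all genes.

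Of 7 other CC receptors measured, Ccr3, Ccr4, Ccr8 and Ccr9 stayed under 2.93, the same 25th percentile, on all 24 arrays. No receptor of this list was called in I30R60 against sham hearts of either genotype. Ccr8 was called in wildtype I30 against wildtype sham hearts (adjusted p = 0.0389), and Ccr8 and Ccr3 in wildtype I30R60 against wildtype I30 hearts (adjusted p = 0.0206 and 0.0129), but all of their values are this low and no size of change is given. Of 4 scavenging receptors, which bind chemokines without the usual signal, only Ackr3 was called in the comparisons of single groups, with a change of 0.43 in wildtype I30R60 against wildtype I30 hearts (adjusted p = 0.0478).

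Among 20 genes of chemokine receptor signalling, Rgs16 and Rgs1 changed most. Both encode proteins that shorten the signal of G proteins. Rgs16 read 7.13, 6.74 and 6.85 in Per2-/- I30R60 hearts, against 4.96, 4.87 and 4.94 in Per2-/- sham hearts, and rose by 1.98 ± 0.19 (adjusted p = 3.36e-06). It read 6.51, 6.66 and 6.61 in wildtype I30R60 hearts, against 5.03, 5.06 and 4.75 in wildtype sham hearts, and rose by 1.64 ± 0.19 (adjusted p = 3.06e-05). Rgs1 rose after IP0, when no chemokine of the 9 was called, by 1.02 ± 0.13 in Per2-/- (adjusted p = 0.0014) and 0.97 ± 0.13 in wildtype hearts (adjusted p = 0.000656). Pik3r5, a subunit of the phosphoinositide kinase that these receptors engage, rose by 0.68 ± 0.19 in Per2-/- I30R60 over Per2-/- sham hearts (adjusted p = 0.0393).

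**Figure D5:**
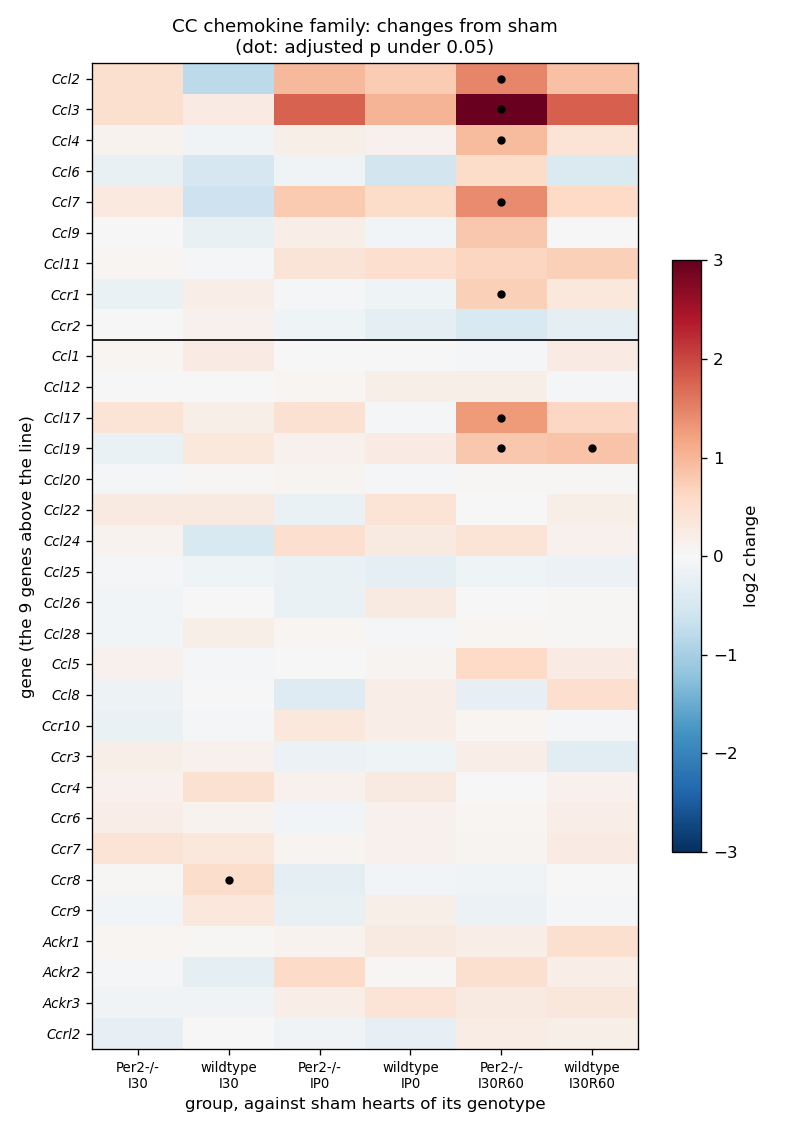
Log2 change (colour, from -3 in blue to 3 in red) of the 9 genes, above the line, and of the other measured CC ligands, receptors and scavenging receptors, below it, in each treated group against sham hearts of its genotype, with a dot at an adjusted p under 0.05. Dots for 7 genes stand in the column of Per2-/- I30R60 hearts, 5 of them above the line, and the one dot in the column of wildtype I30R60 hearts is Ccl19.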

How the data were processed

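Left ventricular RNA of 24 mice was hybridised to 24 arrays, 1 mouse per array and 3 per group. The authors read the scanner files into Partek software, normalized them by RMA and deposited 1 log2 intensity per probe set and array, without detection calls. The methods name RNeasy extraction and the 1.1 ST array, while the labels name Trizol and the series' design text another version of the array. Of 35555 probe sets, 21218 are paired with 1 symbol in the platform annotation and were used. Not used were 1881 that share several symbols and 12456 that it does not list. For 1386 genes with several probe sets the one with the highest mean over all arrays was used, which left 18820 genes.

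One model of all 24 arrays, with a mean for each group and 16 residual degrees of freedom, was fitted with limma 3.58.1 (R 4.3.3), with moderated variances. In each comparison the p values of all genes were adjusted by the Benjamini-Hochberg method, and a gene was called at an adjusted p under 0.05. Each treatment was compared with sham hearts of its genotype, I30R60 with I30 hearts, Per2-/- with wildtype hearts, and interactions were tested. Comparisons with sham share sham arrays and are not independent. Over all genes, hearts of a group had a median SD of 0.172, which gave a median SE of 0.137. The tests were tried on simulated data. The number of arrays limits the precision.

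The members, the lists and the rule for named genes were chosen with earlier results of these data known. Named were all members, called genes of the family lists with up to 3 uncalled ones of highest mean, up to 4 signalling genes by size of change, the 3 genes most alike to each member, and marker genes of highest mean. Values were sorted and drawn with Python 3.11.15, numpy 2.4.6, pandas 2.3.3 and matplotlib 3.10.9, and statmod 1.5.0 served the random block. Alternatives covered scaling, the arrays in the fit, limma options, array weights, probe sets, thresholds, a replicate block, the methods' t-test and left-out arrays.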

Additional observations from a re-analysis of the deposited data

How the results depend on the processing

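With 5 genes called in Per2-/- I30R60 against sham hearts, the count was 0 when only the groups compared were fitted, 3 with array weights, 2 when all probe sets were tested, 0 by the methods' t-test with adjustment (3 at an unadjusted p under 0.05), 3 at a minimum of 2-fold and 2 without the 4 arrays of high Myl7. It was 2 to 4 with 1 array left out. Against I30 hearts the 3 calls in Per2-/- hearts became 1 with only those groups, 0 by the methods' t-test (6 unadjusted) and 1 at a minimum of 2-fold, and 2 to 3 with an array left out. The 0 calls in wildtype I30R60 against sham hearts became 1 with array weights. Without the high-Myl7 arrays Ccl3 stood at 2.75 there. That fit leaves 1 wildtype sham array, replicate 3, which is assumed to vary like the other groups. This array had the lowest Ccl3 of the wildtype sham hearts (5.94). The 1 call in wildtype I30R60 against I30 hearts became 0 by the methods' t-test (5 unadjusted) and 2 without the high-Myl7 arrays, and 0 to 1 with an array left out. For both genotypes together, the 6 calls after I30R60 became 2 with only the groups compared, 2 at a minimum of 2-fold and 2 without the high-Myl7 arrays, and 3 to 7 with an array left out (3 without replicate 3 of the wildtype sham hearts). The 0 calls after IP0 became 1 with median centring, 1 with array weights, 1 with dim probe sets filtered and 1 without the high-Myl7 arrays, and 0 to 2 with an array left out. The causes were not tested. No called change of a member reversed its sign in any setting. Of all 18820 genes, the 901 calls in Per2-/- I30R60 against sham hearts became 310 with only the groups compared, 470 without the high-Myl7 arrays, 3 by the methods' t-test and 475 to 758 with an array left out, and the 464 in wildtype hearts became 191, 129, 2 and 256 to 496.

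The replicate numbers were not taken as pairs: the deviations of same-numbered arrays from their group means had a mean correlation of 0.0203 (-0.0101 for arrays of different numbers), all of these correlations exceeded 0.1 in 1 of 28 group pairs, and 19 of 24 arrays correlated best with one of their own number, a hint from the data and not from the design. With the replicate block as a fixed term, Ccl3 was called in wildtype I30R60 against sham hearts (adjusted p = 0.0394, 1 call against 0) and after IP0 for both genotypes together (adjusted p = 0.0287, 1 call against 0), and Ccr1 was no longer called in Per2-/- I30R60 hearts (adjusted p = 0.0609). It changed no other call of a member, and the random block had a consensus correlation of -0.00703.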
